A study of Mus musculus with 7 samples.

Results

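Mitochondrial ribosomal protein genes were examined in lipid-rich microglia of young and old mice after stroke. They were taken as every gene whose symbol is Mrpl or Mrps followed by a number and at most 1 letter, provided that some library had more than 10 expected counts of it. Of 50686 genes in the files, 78 had such a symbol, and all 78 passed the count minimum and were among the 17559 autosomal genes tested. By symbol, 49 belonged to the large subunit (Mrpl) and 29 to the small subunit (Mrps). The cells were Bodipy+ microglia, rich in neutral lipid droplets, sorted as CD11b and CD45 positive cells from the forebrain of C57BL/6 male mice 4 days after the middle cerebral artery on the right was closed for a time and reopened. The 4 young mice (14C, 18C, 23C and 29C) were 3 to 4 months old and the 3 old mice (2posI, 3posI and 4posI) 21 to 22 months old. Each library came from 1 mouse, all 7 mice had a stroke, and the labels name no transgene and no drug. Both ages were sorted for high Bodipy, so droplet-poor cells and sham-operated mice are outside this comparison. It asked whether transcripts differ with age in cells sorted in the same way. Markers of other cells differed between these libraries, as given below.

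The mitochondrial ribosome translates the few messages encoded by mitochondrial DNA, all of which are subunits of the respiratory chain and ATP synthase. Its rRNAs are transcribed in the mitochondrion, whereas its proteins are encoded in the nucleus, made in the cytosol and imported. Many of these proteins descend from bacterial ribosomal proteins, and others occur in mitochondria alone. The small subunit reads the message, and the large subunit joins amino acids and releases the chain through an exit tunnel at the inner membrane. In microglia, as in other cells, the respiratory chain is a main source of ATP.

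The 78 genes lay on 17 autosomes, and many shared a promoter region with a neighbour. A coding gene that starts within 1000 bases on the other strand was annotated for 33 of the 78 (42.3%), against 15.5% of the 13821 coding genes tested. Mrps11 and Mrpl46 were such neighbours of each other, with starts 412 bases apart. RefSeq promoter windows, 250 bases before to 50 after a start on GRCm38.p6, were found for 69 of the 78 genes, in 75 windows. Motifs of 3 factors that are known to bind promoters of nuclear genes for mitochondrial proteins were searched on both strands. The NRF1 core motif GCATGCGC was in 10.7% of these windows, 4.63% of windows of tested genes and 2.71% of all 32851 windows. The GABPA motif CCGGAAG was in 34.7%, 15.8% and 8.86%, and the YY1 motif AAGATGGCG in 10.7%, 2.50% and 1.40%, respectively. The 3 motifs do not contain one another, and a match describes letters and not a bound site. The 250 bases before the RefSeq start are shown for the member with the smallest p in each subunit, Mrps25 and Mrpl40, and for the 3 paralogs Mrps18a, Mrps18b and Mrps18c, whose values with age are set side by side in a later paragraph. Capitals mark a match on either strand, to the GABPA motif in Mrps18a and Mrps18c and to the NRF1 motif in Mrps18b, and lower case without capitals means that none of the 3 motifs was in that stretch. The GENCODE models of Mrps25, Mrpl40, Mrps18a and Mrps18c begin inside the stretch shown.
Mrps25, chr6:92184024-92184273, minus strand: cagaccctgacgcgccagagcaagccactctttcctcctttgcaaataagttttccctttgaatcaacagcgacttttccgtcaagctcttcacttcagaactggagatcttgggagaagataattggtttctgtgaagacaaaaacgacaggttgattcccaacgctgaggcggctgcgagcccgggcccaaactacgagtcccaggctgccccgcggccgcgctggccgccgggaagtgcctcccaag
Mrpl40, chr16:18876638-18876887, minus strand: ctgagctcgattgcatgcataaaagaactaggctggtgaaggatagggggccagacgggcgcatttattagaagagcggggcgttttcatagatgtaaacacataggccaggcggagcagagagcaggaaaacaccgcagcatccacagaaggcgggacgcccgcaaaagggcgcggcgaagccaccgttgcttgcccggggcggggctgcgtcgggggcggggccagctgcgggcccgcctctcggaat
Mrps18a, chr17:46110754-46111003, plus strand: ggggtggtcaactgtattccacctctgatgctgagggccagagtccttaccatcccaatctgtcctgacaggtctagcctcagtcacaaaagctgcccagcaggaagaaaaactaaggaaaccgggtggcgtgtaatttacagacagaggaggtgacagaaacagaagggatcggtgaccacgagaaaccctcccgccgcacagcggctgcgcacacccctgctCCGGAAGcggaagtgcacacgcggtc
Mrps18b, chr17:35916441-35916690, minus strand: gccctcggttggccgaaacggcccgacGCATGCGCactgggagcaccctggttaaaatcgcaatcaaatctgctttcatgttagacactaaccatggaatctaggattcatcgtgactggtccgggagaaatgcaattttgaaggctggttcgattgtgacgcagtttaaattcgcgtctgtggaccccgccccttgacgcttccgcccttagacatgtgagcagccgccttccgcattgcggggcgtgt
Mrps18c, chr5:100798509-100798758, plus strand: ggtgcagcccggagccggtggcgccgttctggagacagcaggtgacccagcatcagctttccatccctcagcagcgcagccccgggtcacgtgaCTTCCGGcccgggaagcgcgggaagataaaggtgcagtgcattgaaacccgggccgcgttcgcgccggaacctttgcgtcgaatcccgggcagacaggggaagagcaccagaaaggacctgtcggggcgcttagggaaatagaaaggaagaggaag

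Transcripts for these ribosomal proteins were more abundant on average in old mice, but no single gene passed edgeR's test. In edgeR's quasi-likelihood test on expected counts, with Benjamini-Hochberg adjustment over all 17559 genes, 0 of the 78 had an adjusted p under 0.05, against 0.803% of all genes in either direction and 0.570% higher in old mice. In simulated counts with known changes edgeR recovered 16.7% of 2-fold changes. The changed genes there were drawn from the tested genes at large, with their spreads, and not from the 78. Of the 78 genes, 4 were past 1.5-fold here. That share is therefore not the recovery for these genes, and how often changes of this size are missed in them was not tested. limma-voom also called 0 (background 0.814%), and DESeq2 called 12, all higher (15.4%, against 4.82% of the 15431 genes with an adjusted p). Of the calls made at the same threshold in that simulation, 28.3% were false in DESeq2, 8.16% in edgeR and 4.49% in limma-voom. An unadjusted p under 0.05 with a higher value in old mice was found for 31 genes (39.7%, against 10.1% of all genes). With a lower value it was found for 0, against 1544 of all 17559 genes. The fitted fold change was above 0 for 73 of 78 (93.6%, against 48.8% of all genes), with a median of 0.30 on the log2 scale over the 78 and of -0.01 over all genes. In bulk samples, a change in the cells of a type and a change in RNA per cell cannot be told apart.

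**Figure D1:**
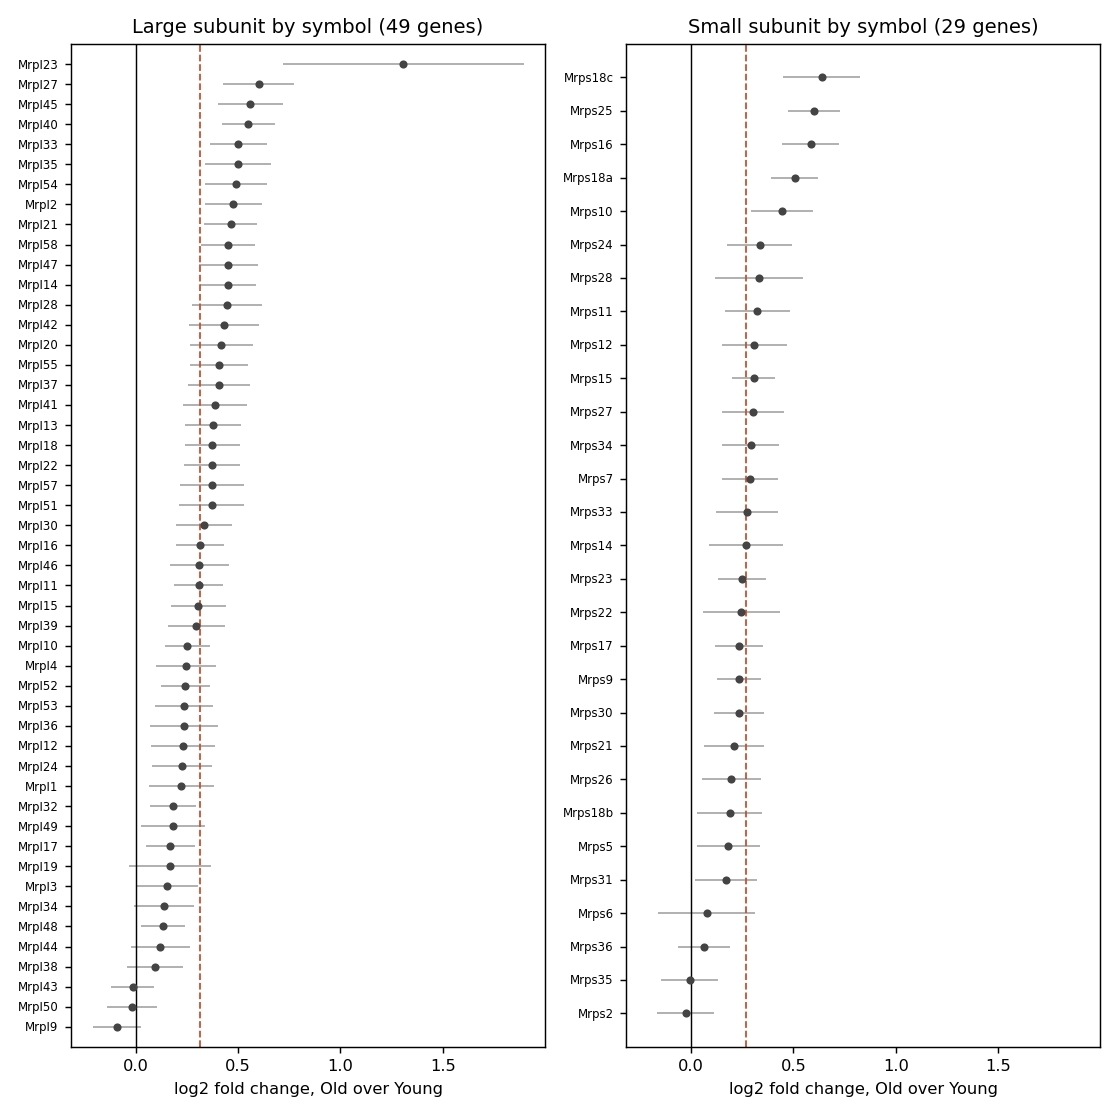
Log2 fold change in CPM, old over young, of the 78 genes by subunit (points, edgeR's fitted values from 4 young and 3 old libraries; bars, standard error; dashed line, median of the subunit). The large subunit centred at 0.31 and the small at 0.27, Mrpl23 stood apart at 1.31 with a wide error, and 5 genes lay below 0.

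Levels were summed over the genes to show each library. The CPM (library-size-scaled counts, with TMM factors) of the 78 genes summed to 2238 in 14C, 2190 in 18C, 2510 in 23C and 2524 in 29C. In old mice the sum was 3081 in 2posI, 3160 in 3posI and 2581 in 4posI. Every old library was above every young one, but 4posI lay close to the highest young library. The means were 2366 ± 176 (SD, n = 4) and 2941 ± 314 (SD, n = 3), a ratio of 1.24, or 1.2 without 3posI. The genes held 0.214% to 0.242% of all counts in the young libraries and 0.259% to 0.288% in the old ones.

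Large and small subunit were then taken apart, each of which had a higher mean sum in old mice. The large subunit summed to 1528 ± 111 CPM in young and 1912 ± 201 CPM in old mice, and the small subunit to 837 ± 65.5 and 1029 ± 114 CPM (SD, n = 4 and 3). The ratio of the large to the small sum in CPM was 1.81 to 1.84 in young libraries and 1.84 to 1.87 in old ones. Of large-subunit genes 46 of 49 had a value above 0 and 25 an unadjusted p under 0.05, and of small-subunit genes 27 of 29 and 6. All of these at an unadjusted p under 0.05 were higher in old mice, against 10.1% of all genes. The difference between the subunits was not tested. Placing Mrps18a and Mrps30 in the large subunit, where their proteins sit, and leaving out Mrps36 gave medians of 0.31 and 0.27.

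**Figure D2:**
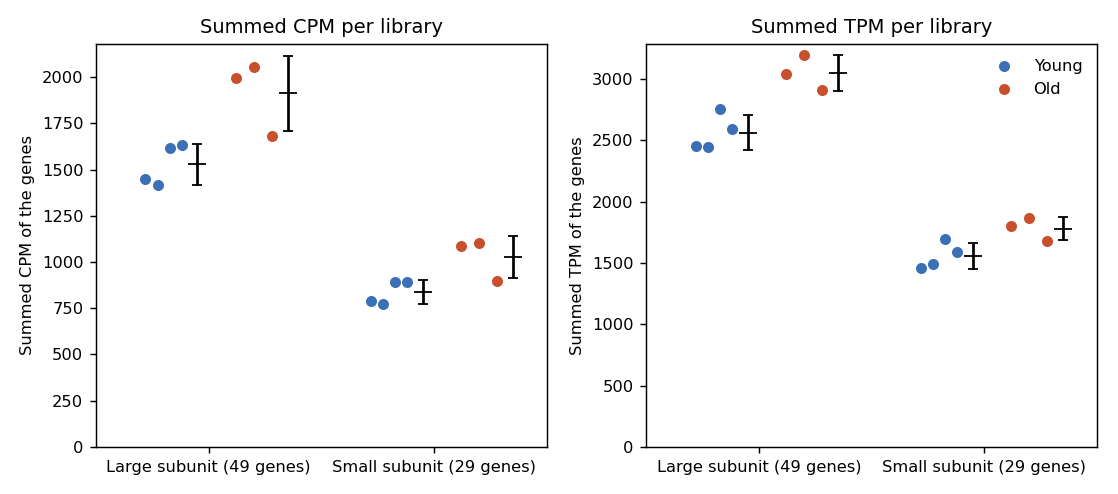
Summed CPM (left) and summed TPM (right) of the large- and small-subunit genes in each library (points) with the mean and SD of each age (black), 4 young and 3 old mice, both axes from 0. In each panel the old points of the large subunit are all above the young ones, while in TPM the lowest old point of the small subunit (1675) is below the highest young one (1694).

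**Figure D3:**
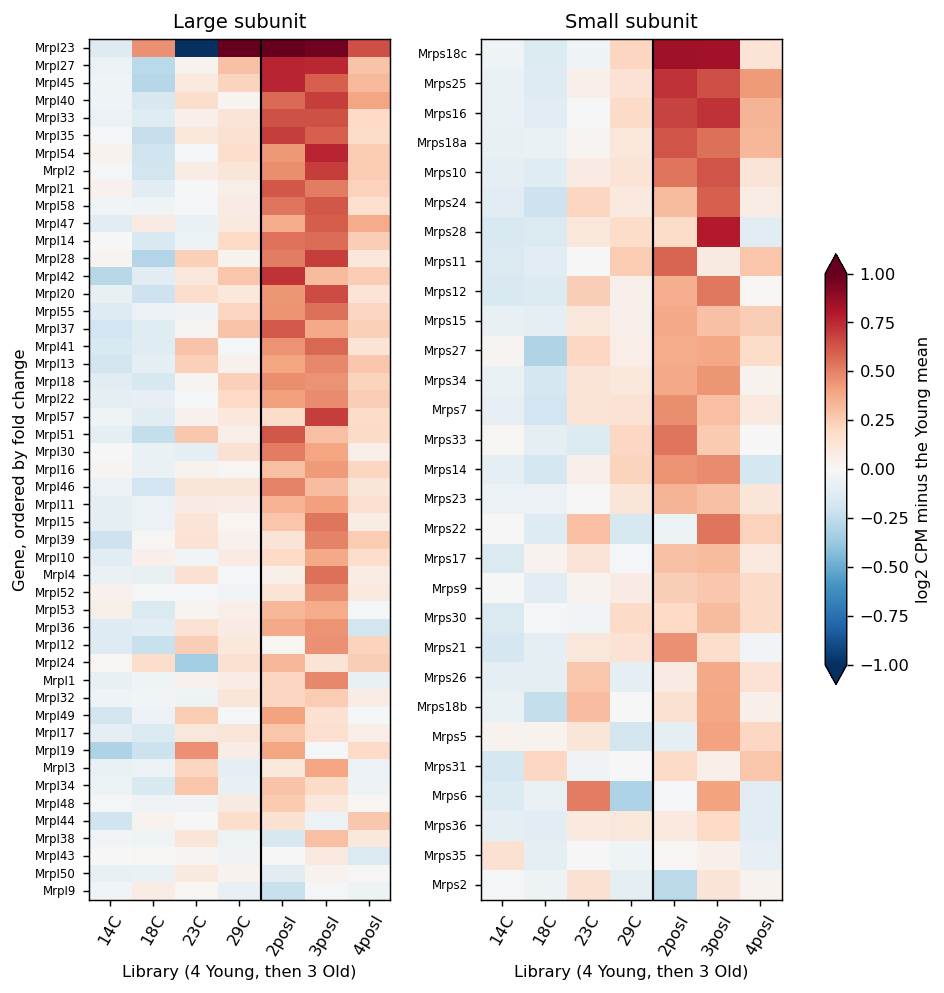
Log2 CPM of each gene in each library minus the mean of the 4 young libraries, by subunit and ordered by fold change, with colours saturating at 1. Columns 2posI and 3posI carry most of the red, 4posI is paler, and 3posI holds the highest value of 45 of the 78 genes.

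The old libraries did not contribute equally. The highest value of a gene was in 3posI for 45 genes, in 2posI for 25 and in 4posI for 2. Without 3posI, 70 of 78 genes had a value above 0, 21 an unadjusted p under 0.05, and the median was 0.23. Without 4posI the median was 0.37 with 46 such genes, without 2posI 0.28 with 18, and without young 14C or 18C it was 0.28 and 0.27 with 16 and 18. The share over all genes at this p is given only for the fit with all 7 libraries (10.1%). These counts therefore cannot be set against a background. In 70 genes the value was above 0 whichever library was left out.

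The libraries also differed in markers of other cells. The 10 markers of infiltrating leukocytes all had a higher fitted value in old mice, with a median of 3.38 on the log2 scale. An unadjusted p under 0.05 in edgeR was found for 7 (against 10.1% of all genes higher in old mice). Calls were 0 in edgeR (background 0.570%) and 3 in DESeq2 (background 4.82%), where 4 of the 10 had no adjusted p. They summed to 32.9 to 123 CPM in young mice and to 96.4 in 2posI, 2037 in 3posI and 154 in 4posI. Ly6c2, a monocyte marker, measured 2.86, 1.16, 1.22 and 0.946 CPM in young and 15.3, 162 and 9.59 CPM in old mice, and Plac8 measured 1.75, 2.35, 0.922 and 4.56 CPM in young and 6.91, 86.2 and 11.7 CPM in old mice. In these 2 markers and in Nkg7 of cytotoxic lymphocytes, every old library was above every young one (3 of 10, against 8.67% of all genes). Nkg7 was near 0, at 0.0224 to 0.137 CPM in young and 0.209 to 1.21 CPM in old mice. Of 9 tested microglia markers 7 had a lower fitted value. Among them 1, Fcrls, had an unadjusted p under 0.05 in edgeR (background for lower 1544 of 17559 genes). Calls were 0 in edgeR and 1 in DESeq2 (background for lower 4.24%). With Gpr34, which is on X and was left out of the test, the 10 markers summed to 21747 to 32406 CPM in young and 25296, 11176 and 23483 CPM in 2posI, 3posI and 4posI. The 5 markers of border-associated macrophages summed to 55.0 to 299 CPM in young and 290, 932 and 82.7 CPM in the same old libraries. The 5 neuron markers summed to 0.818 to 3.64 CPM over all 7 libraries. The part of other cells in the values of the old libraries was not tested.

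Among the small-subunit genes, Mrps25 had the smallest p. It encodes a subunit found in mitochondrial and not in bacterial ribosomes (chr6:92169525-92184033, minus strand, GENCODE vM21 on GRCm38). Its level was 21.1, 20.2, 22.9 and 24.5 CPM in young mice 14C, 18C, 23C and 29C, and 36.5, 34.5 and 29.8 CPM in old mice 2posI, 3posI and 4posI. The ages did not overlap. The fitted log2 change was 0.60 (SE 0.13, adjusted p = 0.0712 in edgeR and 0.00223 in DESeq2). The gene overlaps Nr2c2 on the other strand and the libraries are not stranded, and its expected counts were fractional in all 7 libraries.

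Mrps16, whose product has a bacterial homolog and is needed to build the small subunit (chr14:20389304-20393634, minus strand), had a similar profile. It measured 20.5, 19.8, 21.3 and 24.4 CPM in young and 34.3, 35.3 and 27.1 CPM in old mice, again without overlap. The fold change was 0.58 on the log2 scale (SE 0.14, adjusted p = 0.0914 in edgeR and 0.00966 in DESeq2). In TPM, which is per length, it was 57.6 ± 3.10 in young (SD, n = 4) and 80.9 ± 6.01 in old mice (SD, n = 3).

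The 3 paralogs of bacterial protein S18 differed in their values. Mrps18a, which despite its symbol sits in the large subunit (chr17:46110986-46128910, plus strand), measured 42.5, 42.6, 45.4 and 48.4 CPM in young and 69.1, 65.4 and 56.1 CPM in old mice. Ages did not overlap, and the fitted log2 change was 0.51 (SE 0.12, adjusted p = 0.0834 in edgeR and 0.00535 in DESeq2). Mrps18a overlaps Rsph9 on the other strand. Mrps18c, the paralog closest in place to the bacterial protein (chr5:100798627-100804471, plus strand), measured 26.2, 24.6, 26.2 and 31.3 CPM in young and 48.5, 48.1 and 29.7 CPM in old mice. Here 4posI fell within the young range, and the fitted log2 change of 0.64 had an SE of 0.19 (adjusted p = 0.132 in edgeR and 0.0419 in DESeq2). Mrps18b, another small-subunit protein (chr17:35910379-35916389, minus strand), measured 25.8, 23.0, 33.6 and 27.0 CPM in young and 30.1, 35.4 and 28.1 CPM in old mice, with overlapping ages and a fitted log2 change of 0.19 (SE 0.16, adjusted p = 0.549 in edgeR). The difference in response between paralogs was not tested. Per length, Mrps18a and Mrps18c were at 74.2 ± 2.57 and 73.8 ± 3.33 TPM in young mice (SD, n = 4), above Mrps18b at 41.3 ± 7.53 TPM.

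Among the large-subunit genes the smallest p values belonged to Mrpl40, Mrpl33 and Mrpl21. Mrpl40, a mitochondrion-specific protein of the central protuberance (chr16:18872018-18876862, minus strand), measured 23.5, 21.5, 27.1 and 24.5 CPM in young and 35.8, 38.8 and 31.7 CPM in old mice. The ages did not overlap, and the fitted log2 change was 0.55 (SE 0.13, adjusted p = 0.0870 in edgeR and 0.00811 in DESeq2). Mrpl33, a small protein with a bacterial homolog (chr5:31596935-31664384, plus strand), measured 40.3, 38.5, 43.6 and 45.9 CPM in young and 65.1, 65.4 and 48.1 CPM in old mice. Mrpl21, another bacterial homolog (chr19:3282901-3292837, plus strand), measured 20.7, 18.7, 20.1 and 20.9 CPM in young and 30.9, 28.6 and 23.6 CPM in old mice. In both genes all old libraries were above all young ones, with 4posI nearest to them, and the fitted log2 changes were 0.50 (SE 0.14) and 0.46 (SE 0.13), with adjusted p = 0.125 and 0.128 in edgeR and 0.0373 and 0.0315 in DESeq2. Mrpl40, Mrpl33 and Mrpl21 overlap Gm28539, Rbks and Ighmbp2 on the other strand, and Mrpl21 had fractional counts in all 7 libraries. The other 5 genes called by DESeq2 were Mrpl2, Mrpl27, Mrpl45, Mrpl47 and Mrpl58, which are named here after their values were seen.

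The stalk, which recruits translation factors to the large subunit, is built on Mrpl10, Mrpl11 and Mrpl12. Mrpl11 at the stalk base (chr19:4962147-4966999) measured 21.7, 22.1, 24.4 and 24.2 CPM in young and 29.4, 30.6 and 25.8 CPM in old mice. Mrpl10 (chr11:97041560-97049213) measured 33.8, 38.0, 35.9 and 38.8 CPM in young and 42.0, 47.5 and 41.3 CPM in old mice. The ages did not overlap in either, and the fitted log2 changes were 0.31 (SE 0.12, adjusted p = 0.216 in edgeR) and 0.25 (SE 0.11, adjusted p = 0.265 in edgeR). Mrpl12, which is also reported to bind the mitochondrial RNA polymerase (chr11:120484613-120489065), measured 46.7, 43.9, 60.7 and 55.2 CPM in young and 51.8, 70.2 and 59.7 CPM in old mice, overlapping, with 0.23 (SE 0.16, adjusted p = 0.454 in edgeR).

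Mrps12, a protein of the decoding centre (chr7:28739641-28741820), measured 23.9, 24.2, 31.6 and 27.5 CPM in young and 34.3, 38.4 and 27.0 CPM in old mice. Its ages overlapped through 4posI, and the fitted log2 change was 0.31 (SE 0.16, adjusted p = 0.337 in edgeR). Mrps30, a large-subunit protein with a small-subunit symbol (chr13:118378381-118387252), measured 21.5, 23.4, 23.3 and 27.1 CPM in young and 27.4, 29.6 and 27.2 CPM in old mice. The ages were separate by a narrow margin, with 0.23 (SE 0.12, adjusted p = 0.340 in edgeR). Mrps36, since reassigned to the 2-oxoglutarate dehydrogenase complex and no part of the ribosome (chr13:100735955-100744659), measured 26.6, 26.2, 30.3 and 30.7 CPM in young and 30.3, 32.6 and 26.3 CPM in old mice. Its ages overlapped, its fitted log2 change was 0.06 (SE 0.13, adjusted p = 0.828 in edgeR), and it turned to -0.01 without 3posI.

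In 5 genes the fitted value was below 0, none with an unadjusted p under 0.05 in edgeR. Mrpl9 (chr3:94443318-94451130), a bacterial homolog, measured 21.3, 22.8, 21.9 and 20.6 CPM in young and 18.5, 21.4 and 20.9 CPM in old mice, at -0.09 (SE 0.12). Mrpl43 (chr19:45004829-45006442), a mitochondrion-specific protein, measured 39.2, 39.8, 40.2 and 38.4 CPM in young and 39.3, 42.2 and 35.6 CPM in old mice, at -0.01 (SE 0.11). Both genes overlapped between ages. Mrpl43 shares its promoter region with Twnk, the mitochondrial DNA helicase, which measured 9.50, 11.3, 8.02 and 6.47 CPM in young and 4.56, 3.99 and 4.69 CPM in old mice. Every old library was thus below every young one for Twnk (log2 fold change -1.0, SE 0.23, adjusted p = 0.0811 in edgeR and 0.00203 in DESeq2), and the models of both genes overlap on opposite strands. Mrpl50, Mrps2 and Mrps35 had values of -0.02 (SE 0.12), -0.03 (SE 0.14) and -0.01 (SE 0.14), and their levels overlapped between ages at 16.7 to 19.3, 18.8 to 25.1 and 10.9 to 12.9 CPM over the 7 libraries.

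Mrpl23, an exit-tunnel protein with a bacterial homolog, had the largest fold change and the widest error. It measured 4.09, 6.17, 1.69 and 9.51 CPM in young and 24.1, 8.77 and 7.0 CPM in old mice, so a single library, 2posI, stood above the rest and the ages overlapped. The fitted log2 change was 1.31 (SE 0.59, adjusted p = 0.274 in edgeR), and 0.56 without 2posI. The gene (chr7:142532686-142540747) has a processed copy, Mrpl23-ps1 (chr2:74591330-74591909), and RSEM divided the reads between them. The share given to Mrpl23 ran from 3.23% in 23C to 32.2% in 2posI. When both were summed, an alternative chosen after the values were seen, the level was 51.9, 51.9, 52.2 and 52.6 CPM in young and 74.9, 74.5 and 58.5 CPM in old mice. The ages no longer overlapped, the young libraries lay within 1 CPM, and the fitted log2 change was 0.41 (SE 0.12, adjusted p = 0.131 in edgeR). Mrpl23 was also the only one of the 78 genes with 100 or fewer counts in some library (85.8 in 23C).

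**Figure D4:**
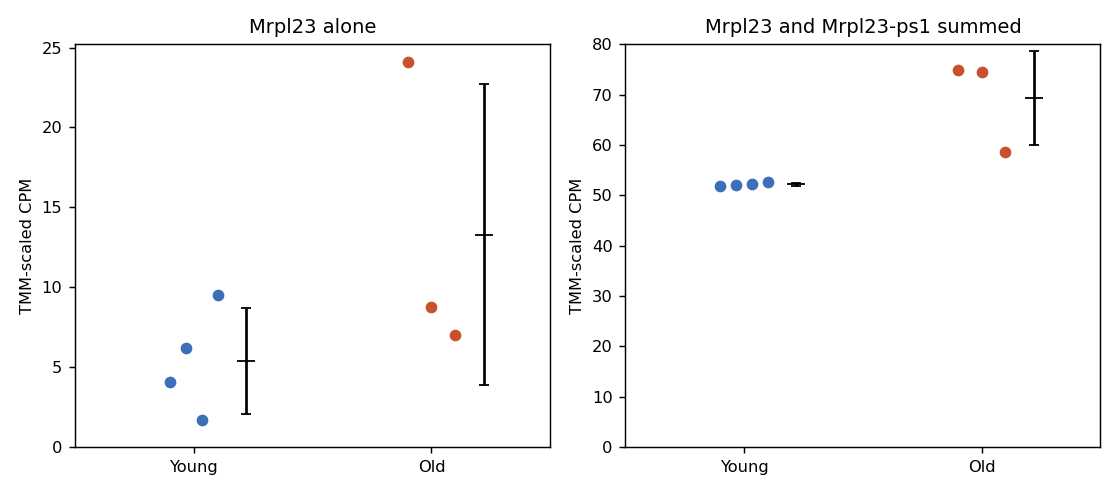
TMM-scaled CPM per library (points, 4 young and 3 old mice) with mean and SD (black) of Mrpl23 alone (left) and summed with its processed copy Mrpl23-ps1 (right), axes from 0. Alone, the level is spread from 1.69 to 24.1 CPM, while summed the young libraries are at 51.9 to 52.6 and the old ones at 58.5 to 74.9 CPM.

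TPM, which divides by length within a library, gave smaller differences in the same direction. limma on log2(TPM + 1) called 0 of 78 (background 0.364% of all genes), with 23 at an unadjusted p under 0.05 and higher (29.5%, background 6.41%). The difference was above 0 for 69 genes (88.5%, background 39.2%), and each of these 69 was also above 0 in CPM. The median was 0.20 on the log2 scale over the 78, 0.22 over the large and 0.17 over the small subunit, against -0.07 over all genes. TPM of the 78 genes summed to 4119 ± 251 in young (SD, n = 4) and 4828 ± 239 in old mice (SD, n = 3), a ratio of 1.17, or 1.14 without 3posI. Every old library was above every young one for 24 genes in CPM (30.8%, background 8.67%) and 28 in TPM (35.9%, background 6.26%), with 17 in both. For 0 genes was every old library below every young one, on either scale. Over all 17559 genes tested this held for 1592 in CPM and 1975 in TPM.

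Per length, the most abundant member was Mrps21 at 226 ± 23.0 TPM in young and 236 ± 25.1 TPM in old mice (SD, n = 4 and 3). It was followed in the small subunit by Mrps33 at 131 ± 9.88 and 145 ± 17.6 TPM, and the large subunit was led by Mrpl52 at 176 ± 8.67 and 198 ± 26 TPM and Mrpl17 at 162 ± 15.4 and 174 ± 2.13 TPM. None of these 4 had an unadjusted p under 0.05 in edgeR, and their log2 fold changes in CPM were 0.21, 0.27, 0.24 and 0.17. At the low end, Mrpl1 had 8.01 ± 0.457 and 9.22 ± 1.00 TPM, Mrpl50 12.1 ± 0.751 and 11.2 ± 1.29 TPM, Mrps31 10.8 ± 1.44 and 11.5 ± 1.72 TPM, and Mrps27 13.2 ± 1.78 and 15.3 ± 0.385 TPM in young and old mice. The ages overlapped in TPM in each of these low genes except Mrpl1, in which all old libraries were higher (log2 difference 0.18, adjusted p = 0.537 in limma). Over the 78 genes, Spearman's rho between mean TPM and fitted log2 change was 0.26, a description over genes that share the same 7 libraries.

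The genes were also grouped by origin and by place in the ribosome. Genes with a bacterial homolog were above 0 in 46 of 48 (median 0.31) and mitochondrion-specific genes in 26 of 29 (median 0.27). All 6 genes of the exit tunnel (median 0.41), all 6 of the central protuberance (0.34) and all 3 of the stalk (0.25) were above 0. The genes are short, with a median length of 929 bases against 2071 for all genes tested, and Spearman's rho between length and fitted log2 change was -0.27 over the 78. A trend with length was fitted in each library over all genes tested, on log2 CPM minus the gene's mean. Removing it lowered the median from 0.30 to 0.23. The median was 0.31 in the 39 genes with whole expected counts in every library. It was 0.31 in the 42 genes without an annotated gene on the other strand and 0.27 in the 36 with one. Of the genes called by DESeq2, 3 were among those 42 and 9 among those 36. Genes with a match to any of the 3 promoter motifs had a median of 0.30 (36 genes) and those without one a median of 0.31 (33 genes). By motif, the medians with and without a match were 0.22 (8 genes) and 0.31 for NRF1, 0.29 (26 genes) and 0.31 for GABPA, and 0.37 (8 genes) and 0.27 for YY1, differences that were not tested.

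The other genes of mitochondrial translation were described in lists, with values in both directions. Of 5 ribosomal proteins with other names, 4 were above 0, with a median of 0.19. Dap3, a GTP-binding small-subunit protein, measured 26.4, 21.7, 30.8 and 27.4 CPM in young and 33.8, 41.7 and 34.4 CPM in old mice, without overlap (log2 fold change 0.46, SE 0.15, adjusted p = 0.161 in edgeR). Aurkaip1 was at 0.44 (SE 0.16, adjusted p = 0.195). Of 29 assembly and rRNA modification factors 16 were above 0 (median 0.03). Grsf1, an RNA-granule protein, and Dhx30, a helicase, were both at -0.37 (adjusted p = 0.167 and 0.180 in edgeR) with every old library below every young one. Such a separation toward lower values was found for 4 of the 29, against 1592 of all 17559 genes tested. Of 15 translation factors 9 were above 0 (median 0.07), with Guf1, a GTPase homologous to bacterial LepA, at -0.40 and Slirp, which binds mitochondrial messages, at 0.29 (adjusted p = 0.163 and 0.250 in edgeR, and 0.0419 and 0.198 in DESeq2).

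Aminoacyl-tRNA synthetases of mitochondria, which charge tRNAs with amino acids, were above 0 in 4 of 17 (median -0.16). Lars2, the leucyl enzyme, was the single gene of these lists that edgeR called. DESeq2 called 3 of the 17, Lars2 higher and Yars2 and Vars2 lower (background for lower 4.24%). Lars2 measured 684, 633, 545 and 769 CPM in young and 1583, 1570 and 1487 CPM in old mice, with a fitted log2 change of 1.23 (SE 0.16, adjusted p = 0.0236 in edgeR and 8.51e-13 in DESeq2). No other synthetase of the list exceeded 46.0 CPM in any library. Why Lars2 lay so far above them was not tested, nor was the origin of its reads. Yars2, the tyrosyl enzyme, measured 18.9, 21.3, 20.8 and 20.4 CPM in young and 13.4, 13 and 12.8 CPM in old mice (log2 fold change -0.64, SE 0.12, adjusted p = 0.0539 in edgeR and 4.58e-05 in DESeq2). Neither gene overlapped between ages, and they lay in opposite directions.

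Genes of mitochondrial DNA transcription and replication were above 0 in 4 of 11 (median -0.03). Polg, the DNA polymerase of mitochondria, measured 56.7, 58.4, 51.3 and 52.8 CPM in young and 38.1, 37.9 and 41.7 CPM in old mice (log2 fold change -0.48, SE 0.11, adjusted p = 0.0768 in edgeR and 0.00163 in DESeq2), and with Twnk it had the smallest p of this list. DESeq2 called 3 of the 11, Polg, Twnk and Polrmt, all lower (background for lower 4.24%). The mitochondrial rRNA genes were taken from a fit that kept chromosomes X, Y and M. mt-Rnr2, the large-subunit rRNA, measured 6571, 8299, 6807 and 6403 CPM in young and 6070, 5148 and 5070 CPM in old mice, every old library below every young one (log2 fold change -0.37, SE 0.19, adjusted p = 0.327 in edgeR). mt-Rnr1, the small-subunit rRNA, measured 321, 397, 1778 and 397 CPM in young and 346, 245 and 243 CPM in old mice, with 23C far above the rest (-1.38, SE 0.61, adjusted p = 0.266 in edgeR). Libraries were primed on poly(A), so the level of these rRNAs need not follow their amount in the cell.

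Among 9 regulators of mitochondrial biogenesis 2 were above 0 (median -0.33). Gabpb1, the partner subunit of GABPA, measured 36.9, 37.7, 34.7 and 37.5 CPM in young and 24.1, 27.1 and 29.8 CPM in old mice (log2 fold change -0.44, SE 0.12, adjusted p = 0.112 in edgeR and 0.0154 in DESeq2). Yy1, whose motif was searched above, measured 14.5, 12.3, 13.3 and 13.6 CPM in young and 17.1, 20.6 and 17.7 CPM in old mice (0.46, SE 0.13, adjusted p = 0.132 in edgeR and 0.0268 in DESeq2). Nrf1, whose motif was also searched, measured 38.9, 35.8, 38.3 and 42.9 CPM in young and 28.8, 31.5 and 32.8 CPM in old mice (-0.33, SE 0.12, adjusted p = 0.180 in edgeR and 0.102 in DESeq2). Ages did not overlap in these 3 genes, Yy1 being higher and the others lower in old mice. They were also separate in Ppargc1a, which was higher but at most 1.22 CPM (1.71, SE 0.60, adjusted p = 0.180 in edgeR). Pprc1 was lower without overlap (-0.47, SE 0.20, adjusted p = 0.245 in edgeR). Of the 9 regulators, 2 were thus higher without overlap (background 8.67%) and 3 lower (background 1592 of 17559 genes). Gabpa, the subunit that binds the third motif, overlapped between ages (-0.15, SE 0.13, adjusted p = 0.578 in edgeR). For comparison, cytosolic ribosomal protein genes were above 0 in 60 of 77 (median 0.19) and nuclear genes for respiratory chain subunits in 74 of 79 (median 0.28). No gene of either list was called by edgeR, while 15 and 36 had an unadjusted p under 0.05 and were higher (background 10.1%). The difference between these lists and the 78 genes was not tested.

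**Figure D5:**
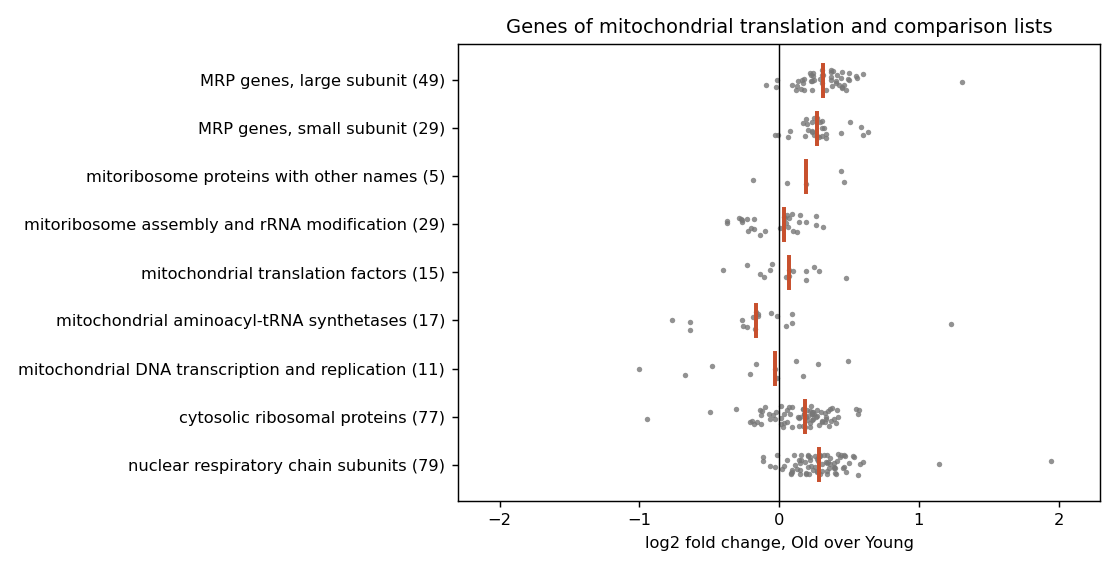
Log2 fold change in CPM, old over young, of each tested gene (points) and the median (bar) in 9 lists, with the number of genes in brackets and vertical scatter added for display. The ribosomal protein lists and the respiratory chain centre at 0.19 to 0.31 to the right of 0, the assembly factors, translation factors, synthetases and DNA genes at -0.16 to 0.07, and Lars2 stands at 1.23 among the synthetases.

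With 3 old and 4 young mice the spread between animals is known only roughly, and it sets every p-value given here. Where genes overlap on opposite strands (36 of 78) or share reads with a copy, unstranded reads cannot be assigned with certainty.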

How the data were processed

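RNA of Bodipy+ microglia of 4 young and 3 old mice was copied with Smart-seq2 and sequenced without strand information, per the labels. After trimming (skewer) and alignment to GRCm38 (STAR), the authors quantified GENCODE m15 genes with RSEM. The submitters' processing notes name FastQC 0.11.5. Which STAR and RSEM releases were run is not given in the sources used. The authors deposited the unnormalized expected counts of RSEM, which divide a read among genes it matches, with TPM values scaled within each library, FPKM values (not used here) and effective lengths. No molecular identifiers are named, so PCR copies count as reads. Labels and methods name different extraction kits.

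Totals were 36574083 to 53002386 expected counts per library, and the 78 genes had 85.8 to 3920 counts each per library. Counts were rounded. Genes needed more than 10 counts in some library, and those on X, Y and M were removed, as in the study's methods. In R 4.3.3, edgeR 4.0.16 gave TMM factors, CPM and the quasi-likelihood test with age as the only term, since the labels give no batch or pairing. Calls needed a Benjamini-Hochberg adjusted p, over all genes tested, under 0.05. TPM was tested with limma 3.58.1 on log2(TPM + 1). DESeq2 1.42.0 and limma-voom were alternatives. Scripts were tested on simulated counts in which 200 of 16814 genes were changed 2-fold or 4-fold. Coordinates and overlaps came from GENCODE vM21, a later release than the authors' on the same build, and promoters from RefSeq on GRCm38.p6.

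The members and lists were chosen with earlier results of these data known. Genes were named by this rule: members past the threshold (0), in each subunit up to 6 lower and 3 higher with the smallest p, the 2 with the highest and the 2 with the lowest mean TPM, 9 genes of the stalk, decoding centre, S18 family and misplaced symbols, the 2 leading genes by p of each other list of mitochondrial translation and of leukocyte markers, and both mitochondrial rRNAs. Mrpl23, the 5 further members and the genes of other lists that DESeq2 called, Nkg7, Chil3, Fcrls, Gpr34, Nrf1, Gabpa, Ppargc1a and Pprc1 were named after their values were seen. The NRF1 motif was shortened after a longer form had been searched.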

Additional observations from a re-analysis of the deposited data

How the results depend on the processing

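DESeq2 called 12 of the 78 genes where edgeR and limma-voom called 0, and 0 were called under the other factors, filters, trend corrections and left-out libraries. Leaving out single libraries gave 16 to 46 genes at an unadjusted p under 0.05 in edgeR (31 with all) and 14 to 29 in TPM (23 with all), and medians of 0.23 to 0.37 in CPM. No share over all genes is given for the fits with a library left out, so these counts have no background. The median fold change in CPM was between 0.23 and 0.32 under all other alternatives, and 73 or 74 genes were above 0. Of the 26 members named by rule, 21 kept 1 sign in all 17 alternatives. The exceptions were values near 0. With the gene length trend removed, Mrps36 was at -0.025, Mrps2 at 0.068 and Mrpl50 at 0.076. With the GC trend removed, Mrpl43 was at 0.13. Mrps35 was at 0.00044 with RLE factors and 0.052 with the effective-length offset. Leaving out libraries gave -0.0082 to 0.14 for Mrps36, -0.11 to 0.082 for Mrps2, -0.047 to 0.022 for Mrpl50, -0.074 to 0.043 for Mrpl43 and -0.036 to 0.052 for Mrps35. The cause was not tested. Over all genes, the count of calls was 141 in edgeR, 1399 in DESeq2 and 288 without a filter on low counts. No paired analysis was possible because the animal codes are not shared between ages.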
